A study of Mus musculus with 32 samples.

Results

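The step from 3 d to 5 d post denervation was examined in the gastrocnemius (GAS) muscle of the mouse. Its samples were set by the time label, as the 4 samples of 5 d and the 4 samples of 3 d. They make 8 of the 32 samples of the series. All genes with at least 0.1 FPKM (fragments scaled to the exon length of the gene and to the total of the library) in at least 4 of these 8 libraries were tested, which kept 18072 of the 33397 genes listed. The study followed the muscle through 8 time points, from 0 to 28 d, to find what accompanies atrophy after nerve injury. The labels name C57BL/6 mice and sciatic nerve transection for every sample, 0 d included. The study's methods describe male C57BL/6J mice in which a stretch of the left sciatic nerve was removed. No transgene or Cre driver is named for the sequenced samples, and each time point stands for other animals. The methods also speak of sham mice, and whether the 0 d samples came from them is not stated in the labels. The 4 libraries of 0 d served as background, outside the test of the step.

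A skeletal muscle fibre that loses its nerve loses its electrical activity. Acetylcholine receptors, normally packed under the nerve ending, are then made along the whole fibre, and myogenin is one of the factors that drives their genes. The fibre also tags its contractile proteins with ubiquitin through the ligases MuRF1 (Trim63) and atrogin-1 (Fbxo32), and the proteasome and the lysosome degrade them. GAS is a mostly fast muscle, in which parvalbumin and the fast myosins are abundant and the slow myosin Myh7 is confined to a minority of fibres. Macrophages, fibroblasts and Schwann cells of the degenerating nerve share the tissue with the fibres.

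Depth was even across the 8 libraries, at 15318082 to 17425644 fragments. Muscle markers were high throughout, with a summed level of 20573 to 24386 FPKM for 6 genes at 3 d and 25819 to 27332 FPKM at 5 d. The labels' extraction text speaks of retinas, yet 8 of the 10 retina markers examined were under the filter, the photoreceptor gene Prph2 was listed at 0 in all 8 libraries, and the list summed to at most 4.18 FPKM. Library a of 3 d stood apart from the rest. On the first principal component of the 8 libraries, which held 51.0% of the variance, it lay at -47.4, against -19.1 to -7.8 for the other 3 d libraries and 19.0 to 27.3 for those of 5 d. It had the lowest value of its group in 542 of the 760 genes that rose. Several results are therefore given with and without it, though not those of every gene in which it stood apart.

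The same library had the lowest sum of the 8 libraries for collagens and matrix genes and for macrophage and fibro-adipogenic markers. The same held for lymphocyte, endothelial, mural, Schwann, satellite cell and adipocyte markers. It was also lowest for mitosis, DNA replication, interferon-stimulated, and complement and antigen presentation genes. It was not lowest for muscle fibre, neutrophil or erythroid markers. Collagens and matrix genes summed to 274 FPKM in it, against 824 to 1254 FPKM in the other 3 d libraries and 1053 to 1341 FPKM at 5 d. The 18 macrophage markers summed to 368 FPKM in it and to 714, 1299 and 1388 FPKM in libraries d, c and b, so the 3 d group spanned the whole range of 5 d (819.8 to 999 FPKM). The part of these cells in the results that follow was not tested. In bulk muscle, fewer cells of a type and less RNA per cell cannot be told apart.

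**Figure D1:**
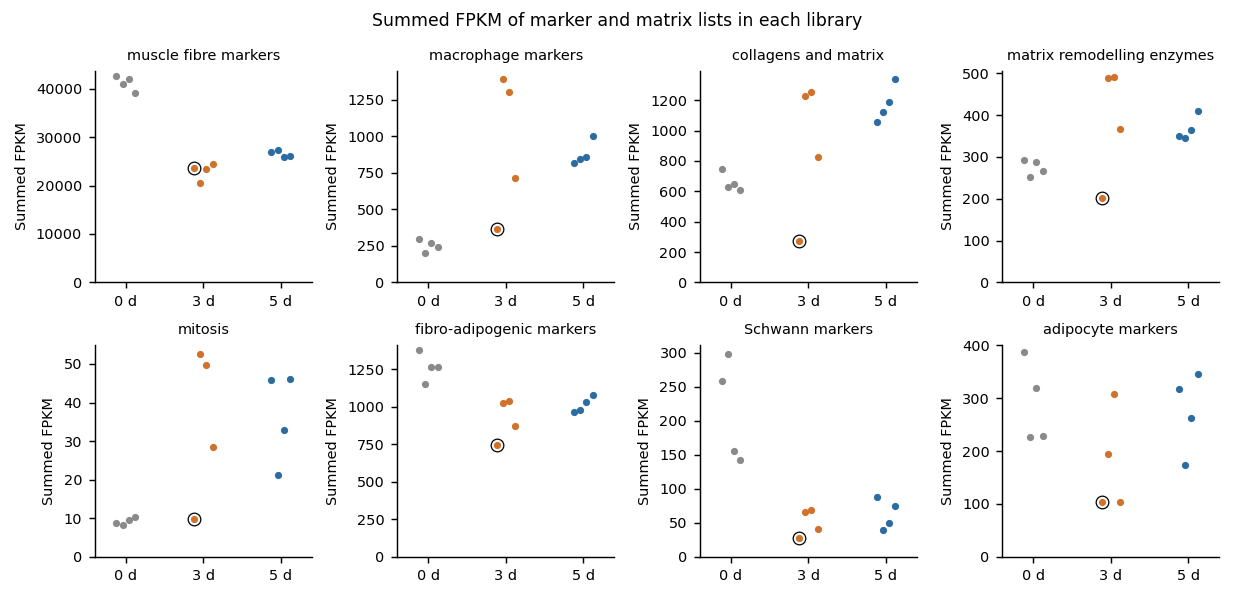
Summed FPKM (linear axis from 0) of 8 marker and matrix lists in each library at 0, 3 and 5 d, with 4 libraries a group and library a of 3 d circled. For collagens and matrix the circled library lies at 274 FPKM, below every library of 0 d, while muscle fibre markers are 20573 to 24386 FPKM at 3 d and 25819 to 27332 FPKM at 5 d.

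Between 3 d and 5 d, 760 genes rose and 433 fell by at least 1.5-fold on the scale of log2(FPKM + 1) at an adjusted p under 0.05 in limma. These were 4.21% and 2.4% of the genes tested, and 6.6% in all. An unadjusted p under 0.05 in limma was reached by 6011 of the 18072 genes tested. Groups that did not overlap, with every 5 d library above every 3 d library, were found for 19.2% of all genes tested, and the opposite order for 8.19%. Of the called genes, 735 of the 760 that rose and 406 of the 433 that fell had no overlap between the groups. A change of at least 2-fold was reached by 191 genes that rose and 160 that fell. Without library a of 3 d, 596 genes (3.3%) rose and 465 (2.57%) fell, and 552 of the 760 and 365 of the 433 were among them. Dividing each library by its median ratio to the others, in place of its total, lowered the median log2 difference of the 11828 genes with a mean of at least 1 FPKM from 0.10 to -0.03. With that scaling 490 genes (2.71%) rose and 641 (3.55%) fell, so the share of called genes that rose was 43.3% in place of 63.7%. Directions are therefore given as relative to the library total, and values near the fold threshold depend on that choice. All adjusted p-values are from limma with Benjamini-Hochberg adjustment over all genes tested, each difference is given with its SE, and n = 4 libraries per group.

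**Figure D2:**
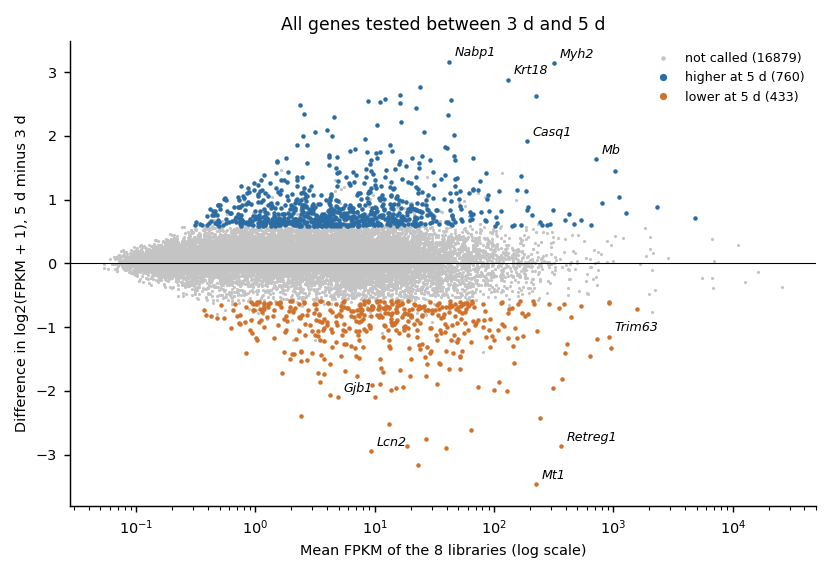
Difference in log2(FPKM + 1) between 5 d and 3 d (vertical) against the mean FPKM of the 8 libraries (horizontal, log scale) for the 18072 genes tested, with the 760 genes that rose in blue and the 433 that fell in orange. Called genes reach 3.16 (Nabp1) upwards and -3.47 (Mt1) downwards, and most genes lie close to 0.

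The genes with the largest rises included Nabp1, the myosin genes Myh2, Myh7 and Myl6b and the keratin genes Krt18 and Krt8. The 12 largest rises were taken among called genes without overlap between the groups, with predicted genes left out. All 12 kept their call without library a of 3 d and under median-ratio scaling. Nabp1 (chr1:51465862-51478425, GRCm38), a protein that binds single-stranded DNA in genome repair, rose most, with 6.08, 4.84, 10.4 and 10.4 FPKM at 3 d and 71.3, 65, 92.1 and 76.3 FPKM at 5 d (log2 difference 3.16 ± 0.22, adjusted p = 0.000107). Every 5 d library lay far above every 3 d library, and the mean at 0 d was lower still, at 3.48 ± 1.2 FPKM (mean ± SD). Myh2 (chr11:67171027-67197517), the fast oxidative IIa myosin heavy chain, measured 19.96, 87.2, 83.7 and 106 FPKM at 3 d and 587, 535, 533 and 599.9 FPKM at 5 d (log2 difference 3.14 ± 0.45, adjusted p = 0.00208). Library a was the lowest at 3 d, the groups did not overlap without it either, and the 5 d libraries overlapped those of 0 d (440.5 ± 106 FPKM). Myh7, the slow myosin heavy chain, measured 1.5, 3.25, 4.78 and 5.83 FPKM at 3 d and 18.8, 18.5, 38.1 and 40.6 FPKM at 5 d (log2 difference 2.64 ± 0.36, adjusted p = 0.00176), and Myl6b, an alkali light chain of slow and non-muscle myosin, 1.63, 4.21, 6.19 and 5.29 FPKM at 3 d and 23.7, 20.3, 31.2 and 37.4 FPKM at 5 d (log2 difference 2.51 ± 0.31, adjusted p = 0.00107). For Myl6b every 5 d library lay above 0 d (3.25 ± 0.77 FPKM), whereas Myh7 at 5 d overlapped 0 d (30.7 ± 11.3 FPKM). Myosin heavy chain genes share long stretches of coding sequence, and how fragments that match several of them were counted is not given in the sources used here.

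Krt18 and Krt8 code for the paired keratins of simple epithelia, which also occur at the costameres of muscle. Krt18 measured 21.9, 13.6, 52.4 and 46.9 FPKM at 3 d and 240.0, 308, 183 and 183 FPKM at 5 d (log2 difference 2.88 ± 0.40, adjusted p = 0.00176). Krt8 measured 7.54, 6.81, 20.04 and 16.1 FPKM at 3 d and 63.4, 98.7, 67.4 and 66.7 FPKM at 5 d (log2 difference 2.57 ± 0.32, adjusted p = 0.00108). Both were nearly silent at 0 d, at 0.478 ± 0.266 and 0.0329 ± 0.0263 FPKM. Igfbp5, which binds insulin-like growth factors, measured 27.5, 72.3, 100.2 and 66.8 FPKM at 3 d and 373, 432, 363 and 354 FPKM at 5 d (log2 difference 2.63 ± 0.33, adjusted p = 0.00109), and Nnat, an imprinted proteolipid of the endoplasmic reticulum, 0.571, 0.85, 5.74 and 1.65 FPKM at 3 d and 20.3, 8.64, 14.4 and 17.9 FPKM at 5 d (log2 difference 2.54 ± 0.44, adjusted p = 0.00506). Igfbp5 at 5 d lay above every 0 d library (145 ± 40.0 FPKM). For Nnat the groups came closest at 5.74 FPKM in library c of 3 d and 8.64 FPKM in library b of 5 d.

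Ddit4l, an inhibitor of mTORC1, measured 4.59, 4.69, 6.8 and 5.32 FPKM at 3 d and 36.4, 30.6, 56.3 and 48 FPKM at 5 d (log2 difference 2.76 ± 0.19, adjusted p = 0.000104) and stood at 74.9 ± 2.59 FPKM at 0 d. Prkag3, the AMP kinase subunit of fast glycolytic fibres, measured 4.82, 5.16, 7.14 and 8.21 FPKM at 3 d and 36.1, 38.7, 39.9 and 37.3 FPKM at 5 d (log2 difference 2.44 ± 0.14, adjusted p = 5.6e-05) and 39.1 ± 6.52 FPKM at 0 d. Both therefore lay far below 0 d at 3 d, and Prkag3 was back within the range of 0 d at 5 d while Ddit4l was not. Plekhh1, a protein with pleckstrin homology and FERM domains, measured 2.1, 1.7, 3.95 and 3.71 FPKM at 3 d and 17.4, 22, 24.8 and 21.9 FPKM at 5 d (log2 difference 2.58 ± 0.20, adjusted p = 0.000158). Srrm4os, a non-coding RNA next to the splicing factor gene Srrm4, measured 1.66, 2.73, 2.74 and 3.18 FPKM at 3 d and 16.1, 21.3, 20.1 and 20.2 FPKM at 5 d (log2 difference 2.53 ± 0.15, adjusted p = 5.6e-05). At 0 d they were at 0.167 ± 0.089 and 0.248 ± 0.0586 FPKM, below every 3 d library. Plekhh1 overlaps Pigh on the other strand by 992 bases and Srrm4os overlaps Srrm4 by 68, and whether strand was kept is not given in the sources used here.

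The genes with the largest falls included Mt1, Lcn2, Acot2 and Retreg1. All 12 kept their call without library a of 3 d and under median-ratio scaling. Mt1 (chr8:94179082-94180327), a metallothionein that binds zinc and copper, fell most, with 545, 491, 282 and 341 FPKM at 3 d and 27.6, 29.3, 40.6 and 47.3 FPKM at 5 d (log2 difference -3.47 ± 0.24, adjusted p = 0.000104). Every 3 d library lay far above the highest of 5 d, and 5 d remained above 0 d (8.09 ± 0.997 FPKM). Lcn2, a siderophore-binding acute phase protein, measured 21.6, 24.7, 9.09 and 14.5 FPKM at 3 d and 1.07, 0.911, 1.47 and 1.65 FPKM at 5 d (log2 difference -2.95 ± 0.27, adjusted p = 0.000294). Acot2, a mitochondrial acyl-CoA thioesterase, measured 103, 86.4, 44.1 and 52.3 FPKM at 3 d and 8.07, 7.5, 8.23 and 8.98 FPKM at 5 d (log2 difference -2.90 ± 0.24, adjusted p = 0.0002), which brought it to the level of 0 d (9.32 ± 0.898 FPKM). Retreg1, a receptor for degradation of the endoplasmic reticulum by autophagy, measured 1023, 625, 448 and 496 FPKM at 3 d and 80.6, 80.9, 90.0 and 82.9 FPKM at 5 d (log2 difference -2.86 ± 0.23, adjusted p = 0.000158). It was the most abundant of the 12, with 5 d slightly above 0 d (70.4 ± 5.66 FPKM). The promoter of Mt1 is shown because metallothionein genes are the standard example of a metal response element, whose core was searched as TGCNCNC on both strands. It is the 250 bases before the start site, from RefSeq on GRCm38.p6, with the match in capitals.
Mt1 (chr8:94178839-94179088, plus strand): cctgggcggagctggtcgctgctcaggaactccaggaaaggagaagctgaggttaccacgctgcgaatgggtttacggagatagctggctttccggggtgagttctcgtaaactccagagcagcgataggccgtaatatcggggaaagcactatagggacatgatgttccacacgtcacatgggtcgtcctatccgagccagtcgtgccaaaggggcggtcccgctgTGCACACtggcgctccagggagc
The match lies 23 bases before the start site listed by RefSeq, and bases after that site were not searched. This short core was found in 44.4% of all promoters of that length, and a match describes the letters only.

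Fbp2 and Slc16a3 ended below 0 d. Fbp2, the muscle form of fructose-bisphosphatase, measured 34.5, 32.3, 29.7 and 36.5 FPKM at 3 d and 3.97, 4.17, 2.7 and 4.14 FPKM at 5 d (log2 difference -2.86 ± 0.12, adjusted p = 1.36e-05) and 29.1 ± 3.09 FPKM at 0 d. Slc16a3, the lactate exporter MCT4, measured 22.5, 31, 17.4 and 21.5 FPKM at 3 d and 2.87, 2.91, 3.13 and 3.56 FPKM at 5 d (log2 difference -2.52 ± 0.15, adjusted p = 5.6e-05) and 53 ± 2.65 FPKM at 0 d. At 3 d Fbp2 overlapped 0 d and Slc16a3 was already below it, and at 5 d every library of both was below every library of 0 d. Asb11, an adaptor of a cullin ubiquitin ligase, measured 180.0, 98.8, 75.6 and 89.8 FPKM at 3 d and 19.9, 15, 16.5 and 14.5 FPKM at 5 d (log2 difference -2.61 ± 0.24, adjusted p = 0.000294) and also ended below 0 d (56.3 ± 6.91 FPKM). Depp1, which FoxO factors are known to induce, measured 29.9, 25.7, 63.5 and 72.1 FPKM at 3 d and 5.34, 4.47, 7.78 and 5.3 FPKM at 5 d (log2 difference -2.75 ± 0.33, adjusted p = 0.000884). Rgcc, a cell cycle regulator, measured 557, 560.3, 246 and 308 FPKM at 3 d and 71.2, 76.9, 67.5 and 73.7 FPKM at 5 d (log2 difference -2.43 ± 0.25, adjusted p = 0.000493). Fkbp5, a co-chaperone of steroid receptors, measured 20.1, 24.8, 12.4 and 11.2 FPKM at 3 d and 2.68, 2.81, 3.47 and 3.28 FPKM at 5 d (log2 difference -2.09 ± 0.23, adjusted p = 0.000574). Rgcc and Fkbp5 at 5 d lay at or close to the level of 0 d, at 60.8 ± 8.03 and 3.14 ± 0.635 FPKM.

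The other falls in this group rested on thin or uneven values. Mir7212 is a hairpin of 61 bases inside Retreg1 (chr15:25843180-25973687) on the same strand. It was listed at 6.42, 7.84, 2.01 and 2.91 FPKM at 3 d, from 2 to 8 fragments a library, and at 0 in every library of 5 d and 0 d. Against a floor of 3 fragments per library it was at least 1.65-fold lower at 5 d. A library of fragmented long RNA does not measure the mature miRNA. Gjb1, the gap junction protein connexin 32 of myelinating Schwann cells and liver, measured 2.41, 16.4, 14.9 and 2.15 FPKM at 3 d and 1.5, 0.0718, 0.235 and 1.65 FPKM at 5 d (log2 difference -2.10 ± 0.63, adjusted p = 0.0441). Its 3 d libraries fell into a high and a low pair, and its call was lost in limma-voom, with no filter on low values and without any 1 of libraries b or c of 3 d or a, b, c or d of 5 d.

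**Figure D3:**
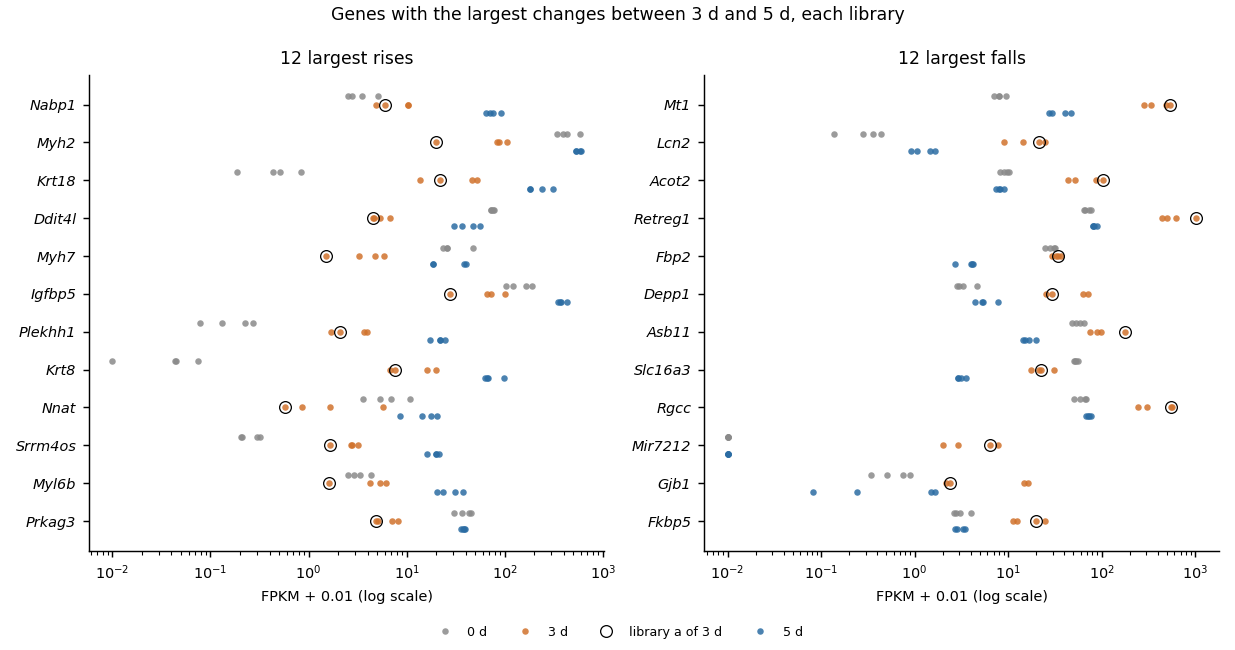
FPKM + 0.01 on a log axis for the 12 largest rises (left) and the 12 largest falls (right), predicted genes left out, with 1 point per library at 0 d (grey), 3 d (orange) and 5 d (blue) and library a of 3 d circled. All 24 genes were chosen among called genes whose 3 d and 5 d values do not overlap. For Mt1 the 5 d libraries lie at 27.6 to 47.3 FPKM against 282 to 545 FPKM at 3 d.

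Among the acetylcholine receptor subunits, Chrna1, Chrnd and Chrne rose. Of 15 genes of the receptor and the neuromuscular junction, 3 rose, 1 fell and 11 were not called, with a median log2 difference of 0.31 (0.18 without library a of 3 d) beside 0.08 over all genes tested. Chrna1, the subunit that binds acetylcholine, measured 24.6, 38.5, 61 and 72 FPKM at 3 d and 120.0, 134, 117 and 119 FPKM at 5 d (log2 difference 1.41 ± 0.29, adjusted p = 0.00963) and 3.56 ± 0.458 FPKM at 0 d. Chrnd, the delta subunit of both the fetal and the adult receptor, measured 5.2, 9.71, 16.8 and 19.99 FPKM at 3 d and 27.5, 33, 30.9 and 34.1 FPKM at 5 d (log2 difference 1.36 ± 0.33, adjusted p = 0.0216). In both genes libraries a and b were the low ones at 3 d, and without library a the differences were 1.13 and 1.02. The call of Chrnd was lost without any 1 of libraries b of 3 d or b, c or d of 5 d. Chrne, the adult epsilon subunit, measured 0.85, 1.03, 1.09 and 2 FPKM at 3 d and 3.48, 3.88, 4.04 and 3.7 FPKM at 5 d (log2 difference 1.12 ± 0.15, adjusted p = 0.00139). Its 5 d libraries lay between 3 d and 0 d (7.61 ± 1.27 FPKM), while Chrna1 and Chrnd moved further from 0 d. The other subunits were not called. Chrnb1, the beta subunit, was at 53.6 FPKM at 3 d and 74.2 FPKM at 5 d (means, log2 difference 0.46 ± 0.08, adjusted p = 0.00589), which did not reach the fold, and Chrng, the fetal gamma subunit, was at 8.99 FPKM at 3 d and 15.3 FPKM at 5 d (means, log2 difference 0.85 ± 0.32, adjusted p = 0.101). Dok7, the adaptor that activates the receptor kinase MuSK, measured 9.56, 13.2, 9.14 and 11 FPKM at 3 d and 5.27, 6.3, 5.06 and 5.98 FPKM at 5 d (log2 difference -0.81 ± 0.12, adjusted p = 0.00223). 

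E-boxes, the CANNTG sites that myogenic factors such as myogenin bind, are a known part of these promoters, so the promoters of Chrna1 and Chrne are shown from RefSeq on GRCm38.p6. The 250 bases before the start site are given 5′ to 3′ on the gene's strand, with each CANNTG in capitals.
Chrna1 (chr2:73580339-73580588, minus strand): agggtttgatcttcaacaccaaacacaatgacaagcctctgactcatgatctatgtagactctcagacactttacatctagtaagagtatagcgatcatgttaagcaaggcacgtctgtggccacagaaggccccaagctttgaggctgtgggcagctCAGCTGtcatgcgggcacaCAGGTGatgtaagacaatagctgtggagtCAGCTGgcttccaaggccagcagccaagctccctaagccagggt
Chrne (chr11:70619195-70619444, minus strand): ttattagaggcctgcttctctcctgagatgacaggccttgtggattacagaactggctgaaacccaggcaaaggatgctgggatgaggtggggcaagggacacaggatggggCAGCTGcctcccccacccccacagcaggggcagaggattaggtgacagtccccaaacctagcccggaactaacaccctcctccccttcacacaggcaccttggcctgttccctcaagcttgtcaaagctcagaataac
Chrna1 has 3 matches, at 92, 73 and 44 bases before the start site, and Chrne has 1, at 138 bases. A match was present in 9 of the 10 promoters found for the 15 genes beside 66.2% of all promoters.

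Myogenin itself went the other way. Of 15 myogenic and denervation regulators, 2 rose and 2 fell. Myog measured 165, 218, 236 and 241 FPKM at 3 d and 84.6, 94.2, 88.6 and 109 FPKM at 5 d (log2 difference -1.17 ± 0.13, adjusted p = 0.000641), against 1.97 ± 0.464 FPKM at 0 d. Every 5 d library was below every 3 d library and far above 0 d. Myf6, the myogenic factor of mature fibres, measured 1123, 1027, 1094 and 1168 FPKM at 3 d and 699, 775, 727 and 683 FPKM at 5 d (log2 difference -0.61 ± 0.08, adjusted p = 0.00133), and its call was lost without library d of 3 d. Hdac4, the deacetylase that couples denervation to myogenin, measured 9.2, 7.72, 9.58 and 9.77 FPKM at 3 d and 13, 16.8, 16.7 and 15.1 FPKM at 5 d (log2 difference 0.70 ± 0.10, adjusted p = 0.00203). Under median-ratio scaling its difference was 0.56 and it was not called. Hdac4 overlaps a predicted gene on the other strand by 3536 bases. Mef2c, a partner of the myogenic factors, measured 23.9, 28.7, 40.1 and 46.2 FPKM at 3 d and 55, 59.6, 54.1 and 52.7 FPKM at 5 d (log2 difference 0.70 ± 0.18, adjusted p = 0.0264), a call lost without any 1 of libraries a or b of 3 d or a, b, c or d of 5 d. Within the list, 1 rose without any 1 of libraries a or b of 3 d or a, b, c or d of 5 d and 1 fell without library d of 3 d. Of the 15 genes in this list, 0 rose and 3 fell under median-ratio scaling.

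**Figure D4:**
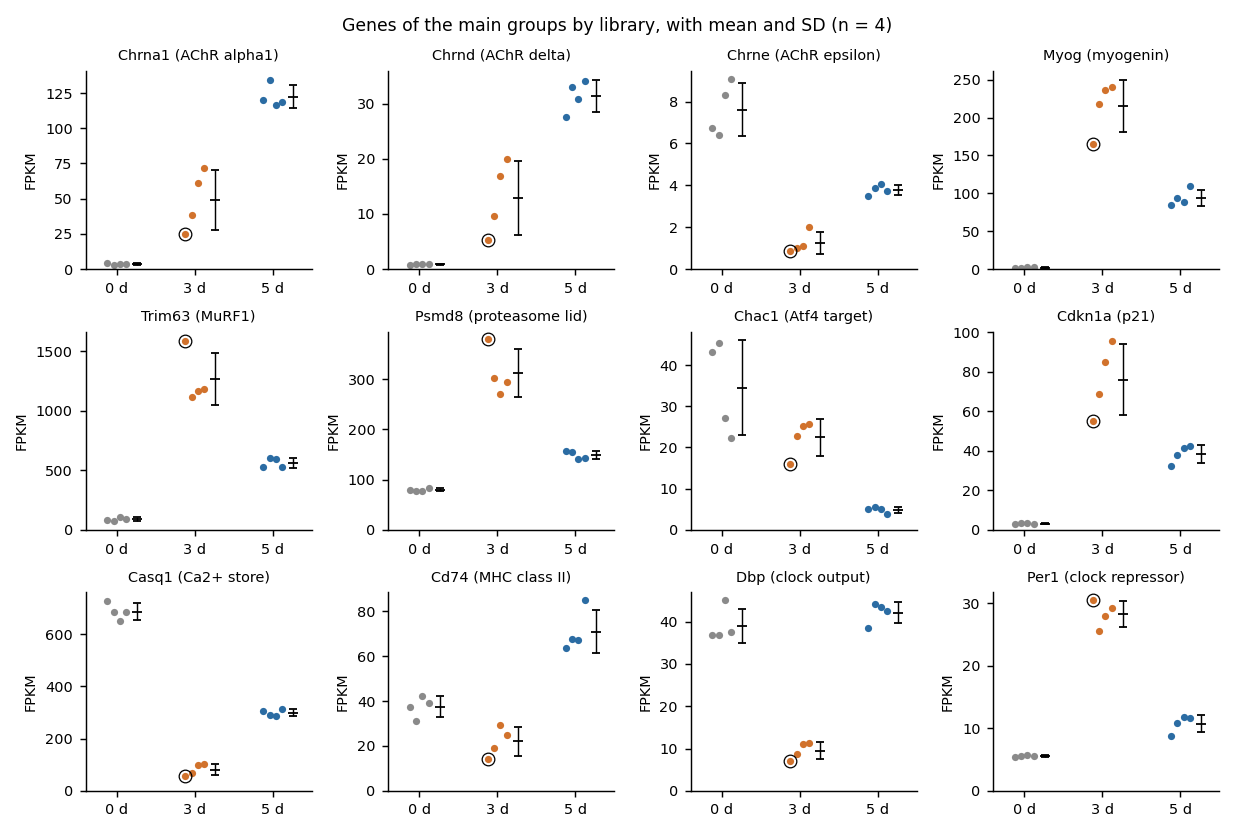
FPKM (linear axes from 0) of 12 genes in each library at 0, 3 and 5 d, with the mean and SD (n = 4) beside each group and library a of 3 d circled. Chrna1 and Chrnd move away from 0 d between 3 d and 5 d, Chrne, Casq1 and Dbp move back towards it, and Trim63, Psmd8 and Myog fall while remaining above it.

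Part of the adult sarcomere genes rose. Of 32 measured, 8 rose, 1 fell and 23 were not called, with a median of 0.41 (0.26 under median-ratio scaling), and without library a of 3 d the counts were 9 and 1. Within the list, 2 fell without library c of 3 d. The largest were Myh2 and Myh7, given above, and 2 further genes of slow and oxidative fibres. Myl2, the slow regulatory light chain, measured 12.5, 24.4, 22.9 and 31.8 FPKM at 3 d and 63.4, 49, 80.3 and 89 FPKM at 5 d (log2 difference 1.61 ± 0.28, adjusted p = 0.00462). Tnnt1, the slow troponin T, measured 17.8, 29.8, 28.9 and 47.8 FPKM at 3 d and 54, 49.5, 79.3 and 80.4 FPKM at 5 d (log2 difference 1.11 ± 0.28, adjusted p = 0.0236), and its call was lost without any 1 of libraries b of 3 d or c or d of 5 d. For Tnnt1 the groups were close, since library d of 3 d reached 47.8 FPKM and the lowest of 5 d was 49.5 FPKM. At 0 d these light chain and troponin genes were themselves spread over 82.8 to 293 and 49 to 141 FPKM. The rise was not confined to slow genes. Also called higher were Tpm2 (log2 difference 1.04), the fast genes Myh1 (0.88) and Mylpf (0.71), and Actn2 (0.64). The slow genes Tnnc1 (0.98), Tnni1 (0.88) and Myl3 (0.62) were not called.

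Embryonic and stress-responsive sarcomere genes split. Of 16 genes, 6 rose and 3 fell, counts that no left-out library changed. The keratins Krt18 and Krt8 led the rises. Igfn1, a Z-disc protein, measured 8.54, 13.8, 14 and 17.2 FPKM at 3 d and 66.7, 78.7, 64.1 and 67.3 FPKM at 5 d (log2 difference 2.32 ± 0.18, adjusted p = 0.000135). Xirp1, an actin-binding repair protein of the intercalated disc and the myotendinous junction, measured 263, 254, 146 and 166 FPKM at 3 d and 47.4, 55.2, 43.1 and 51.5 FPKM at 5 d (log2 difference -2.01 ± 0.19, adjusted p = 0.000325) and stood at 22.8 ± 1.78 FPKM at 0 d. Igfn1 thus moved away from 0 d (3.56 ± 2.55 FPKM) and Xirp1 moved back towards it.

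Calcium handling and fibre membrane genes were next. Of 18 genes of calcium handling and excitation-contraction coupling, 6 rose and 1 fell, with a median of 0.49. Casq1, the calcium store protein of fast fibres, measured 57.8, 66.4, 97.1 and 101 FPKM at 3 d and 305, 291, 288 and 315 FPKM at 5 d (log2 difference 1.92 ± 0.17, adjusted p = 0.000257), against 687 ± 31.5 FPKM at 0 d. Cacna1s, the voltage sensor of the T-tubule, measured 47, 57.2, 61.8 and 63.4 FPKM at 3 d and 103, 127, 127 and 130.03 FPKM at 5 d (log2 difference 1.07 ± 0.11, adjusted p = 0.000473), and its 5 d libraries lay within or above the range of 0 d (96.9 ± 12.1 FPKM). Cacnb1, its beta subunit, measured 11.8, 21.8, 22.1 and 25.8 FPKM at 3 d and 35.8, 38.5, 43.3 and 46.5 FPKM at 5 d (log2 difference 1.02 ± 0.21, adjusted p = 0.0103). Casq2, the slow and cardiac calsequestrin, measured 7.52, 23.7, 14 and 17.2 FPKM at 3 d and 27.1, 24.7, 30.4 and 34.6 FPKM at 5 d (log2 difference 0.95 ± 0.28, adjusted p = 0.0434), and its call was lost without any 1 of libraries c or d of 3 d or a, b, c or d of 5 d. Library a of 3 d was the lowest of the 8 libraries in each of these 4 genes. Of the 18 genes in this list, 4 rose and 2 fell under median-ratio scaling.

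Of 20 membrane ion channels and pumps, 6 rose and 2 fell. Atp1b1, a subunit of the sodium pump, measured 6.23, 14.2, 13.5 and 14.9 FPKM at 3 d and 36.1, 34.1, 33 and 35.6 FPKM at 5 d (log2 difference 1.499 ± 0.23, adjusted p = 0.00274) and 70.8 ± 16.7 FPKM at 0 d. It lay below 0 d at each time. Kcnq5, a potassium channel, measured 2.34, 3.89, 4.74 and 5.14 FPKM at 3 d and 11.5, 14.3, 13.4 and 11.7 FPKM at 5 d (log2 difference 1.48 ± 0.18, adjusted p = 0.000957) and passed 0 d (2.56 ± 0.782 FPKM). Within the list, 1 fell without any 1 of libraries a, b or d of 3 d or a, b or c of 5 d.

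Some genes of protein breakdown came down from 3 d. Of 18 atrophy ubiquitin ligases, 0 rose and 3 fell, and 9 of the 18 differences were positive. In limma-voom 1 rose and 4 fell. Trim63 (MuRF1) measured 1590.1, 1114, 1168 and 1184 FPKM at 3 d and 531, 607, 593 and 525 FPKM at 5 d (log2 difference -1.15 ± 0.12, adjusted p = 0.00055). Library a was the highest at 3 d, the difference without it was -1.04, and 5 d was still far above 0 d (91.4 ± 13.3 FPKM). Fbxo31, a cullin ligase subunit that degrades cyclin D1, measured 66.3, 64.7, 39.5 and 42.7 FPKM at 3 d and 15.7, 17.9, 16.9 and 16.4 FPKM at 5 d (log2 difference -1.58 ± 0.17, adjusted p = 0.000515) and ended below 0 d (22.2 ± 2.45 FPKM). Asb2, a ligase adaptor for filamins, measured 280.3, 223, 261 and 263 FPKM at 3 d and 154, 187, 186 and 154 FPKM at 5 d (log2 difference -0.59 ± 0.10, adjusted p = 0.00428), a call lost without any 1 of libraries a, c or d of 3 d or a or d of 5 d. Fbxo32 (atrogin-1), the other standard marker of atrophy, was listed low in this table, at 1.32, 0.48, 0.889 and 1.04 FPKM at 3 d, 0.716, 0.72, 2.04 and 2.16 FPKM at 5 d and 0.907 ± 0.159 FPKM at 0 d, and was not called (log2 difference 0.28 ± 0.24, adjusted p = 0.475). Tnnc2, fast troponin C, was also listed low, at means of 0.868 FPKM at 3 d and 0.974 FPKM at 5 d. Tnni2, fast troponin I, had means of 2758 and 2933 FPKM. Whether such low values give the level of the gene was not tested.

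Of 31 proteasome subunits, 0 rose and 4 fell. Their median of -0.38 lay below that of all genes, and 30 of the 31 differences were negative. Without library a of 3 d the median was -0.29 and 1 subunit fell, and under median-ratio scaling 9 fell. Psmd8, a lid subunit, fell under each of these, with 379, 303, 269 and 294 FPKM at 3 d and 157, 154, 141 and 143 FPKM at 5 d (log2 difference -1.05 ± 0.10, adjusted p = 0.000394). Its 0 d level was 80.1 ± 2.97 FPKM. Psmb2 measured 168 ± 36.2 FPKM at 3 d and 101 ± 9.87 FPKM at 5 d (mean ± SD, log2 difference -0.71 ± 0.14, adjusted p = 0.00829). Psma2 measured 80.1 ± 16.3 FPKM at 3 d and 51 ± 4.5 FPKM at 5 d (log2 difference -0.62 ± 0.13, adjusted p = 0.0124), and Psmc4 139.9 ± 22.9 FPKM at 3 d and 90.1 ± 7.58 FPKM at 5 d (log2 difference -0.62 ± 0.11, adjusted p = 0.00607). In these last genes library a was the highest of 3 d, with 222, 102 and 174 FPKM, and their calls were lost without it. The call of Psma2 was also lost without library d of 5 d and that of Psmc4 without library c of 5 d.

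Of 28 autophagy and lysosome genes, 2 rose and 5 fell. Gabarapl1, which coats autophagosomes, measured 137, 122, 92.2 and 86 FPKM at 3 d and 50.001, 50.8, 53.3 and 58.1 FPKM at 5 d (log2 difference -1.003 ± 0.14, adjusted p = 0.00201). Bnip3, a mitophagy receptor, measured 225, 145, 121 and 131 FPKM at 3 d and 84.5, 79.3, 75.6 and 72.6 FPKM at 5 d (log2 difference -0.95 ± 0.17, adjusted p = 0.00642). Tfeb, the main transcription factor of lysosome genes, measured 10.4, 10.8, 8.83 and 8.72 FPKM at 3 d and 5.68, 5.86, 4.78 and 5.47 FPKM at 5 d (log2 difference -0.72 ± 0.09, adjusted p = 0.00115), which is below 0 d (8.94 ± 0.833 FPKM). Map1lc3a, a relative of Gabarapl1, went up, with 266, 304, 300.5 and 342 FPKM at 3 d and 488, 466, 474 and 503 FPKM at 5 d (log2 difference 0.67 ± 0.08, adjusted p = 0.00103). Its call was lost under median-ratio scaling, where the difference was 0.52. Within the list, 1 rose without any 1 of libraries a or d of 3 d or a, b, c or d of 5 d. Of the 28 genes in this list, 0 rose and 5 fell under median-ratio scaling.

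Genes of energy metabolism went in both directions. None of the 62 nuclear-encoded genes of respiratory complexes I to IV was called by limma, with a median of 0.08 (-0.07 under median-ratio scaling) and a range of -0.58 to 0.49. Of the 62, 16 were at an unadjusted p under 0.05, beside 6011 of the 18072 genes tested, and limma-voom called 0. Within the list, 1 fell without any 1 of libraries c or d of 3 d. Of the 62 genes in this list, 0 rose and 1 fell under median-ratio scaling. Ndufb10 (log2 difference 0.49 ± 0.08, adjusted p = 0.004) passed the adjusted p but not the fold. None of the 13 genes of the mitochondrial chromosome was called either, although 12 of the 13 differences were negative, with 2 at an unadjusted p under 0.05 and 0 called by limma-voom. The most moved were mt-Co3 (log2 difference -0.54 ± 0.21, adjusted p = 0.108) and mt-Nd6 (log2 difference -0.42 ± 0.16, adjusted p = 0.0957). The mitochondrial chromosome supplied 13.5, 10.02, 9.95 and 11.5% of the fragments at 3 d and 10.7, 8.97, 8.84 and 7.90% at 5 d. The groups overlapped, and the difference in means of -2.12 percentage points did not pass an exact permutation test (two-sided, p = 0.0857, with 0.0286 the smallest that 4 against 4 allows). At 0 d the share was 17.1 ± 1.76%.

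Of 29 genes of glycolysis and glycogen, 2 rose and 3 fell. Ldhb, the oxidative lactate dehydrogenase subunit, measured 11.2, 19.2, 18.1 and 21.3 FPKM at 3 d and 70.2, 48, 62.1 and 69.9 FPKM at 5 d (log2 difference 1.80 ± 0.19, adjusted p = 0.000567), well under 0 d (188 ± 21.3 FPKM). Ugp2, which makes UDP-glucose for glycogen, measured 1254, 857, 767 and 871 FPKM at 3 d and 372, 358, 326 and 291 FPKM at 5 d (log2 difference -1.45 ± 0.15, adjusted p = 0.000515) and returned to 0 d (327 ± 23 FPKM). Pfkfb3, a regulator of glycolytic flux, measured 31.7 ± 6.87 FPKM at 3 d and 15.8 ± 1.82 FPKM at 5 d (log2 difference -0.94 ± 0.16, adjusted p = 0.00456), and Gbe1, the glycogen branching enzyme, 49.4 ± 2.52 FPKM at 3 d and 30.2 ± 0.644 FPKM at 5 d (log2 difference -0.69 ± 0.05, adjusted p = 0.000158). Gapdh, often taken as a reference, was not called, at 123 ± 15.6 FPKM at 3 d and 111 ± 8.4 FPKM at 5 d (log2 difference -0.14 ± 0.10, adjusted p = 0.361), and stood at 197 ± 2.98 FPKM at 0 d. Within the list, 1 rose without library a of 3 d. Of the 29 genes in this list, 1 rose and 3 fell under median-ratio scaling, and 4 rose and 3 fell in limma-voom.

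Of 30 genes of fatty acid oxidation and the TCA cycle, 2 rose and 2 fell. The beta-oxidation enzymes Hadhb and Acadl fell, from 95.1 ± 11.8 to 50.6 ± 3.49 FPKM (log2 difference -0.89 ± 0.09, adjusted p = 0.000465) and from 242 ± 21.1 to 139 ± 4.98 FPKM (log2 difference -0.79 ± 0.07, adjusted p = 0.000294). Idh2, a mitochondrial isocitrate dehydrogenase, rose from 14.7 ± 4.72 to 26.4 ± 2.38 FPKM (log2 difference 0.87 ± 0.23, adjusted p = 0.0268), and Acaa2, a thiolase, from 32.4 ± 5.54 to 50.6 ± 5.83 FPKM (log2 difference 0.64 ± 0.14, adjusted p = 0.0119). The call of Idh2 was lost without any 1 of libraries a, c or d of 5 d, and that of Acaa2 without library a of 3 d. Within the list, 1 rose without any 1 of libraries a of 3 d or a, c or d of 5 d. Of the 30 genes in this list, 1 rose and 3 fell under median-ratio scaling. Of 20 regulators of mitochondria and fuel use, 3 rose and 4 fell. Pdk4, which shuts pyruvate out of the mitochondrion, measured 625, 657, 488 and 525 FPKM at 3 d and 129.9, 168, 183 and 171 FPKM at 5 d (log2 difference -1.81 ± 0.13, adjusted p = 0.000123) and came close to 0 d (132 ± 12.2 FPKM). Txnip, an inhibitor of glucose uptake, fell from 132 ± 24.3 to 59.3 ± 8.94 FPKM (log2 difference -1.13 ± 0.14, adjusted p = 0.00115). Cd36, the fatty acid transporter, fell from 199.8 ± 26.2 to 98.2 ± 6.82 FPKM (log2 difference -1.01 ± 0.10, adjusted p = 0.000305), and Lpl, lipoprotein lipase, rose from 17.9 ± 4.81 to 35.8 ± 2.42 FPKM (log2 difference 0.995 ± 0.16, adjusted p = 0.0039). 

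Of 13 polyamine genes tested, 2 rose and 0 fell. Sms, spermine synthase, rose from 15 ± 2.31 to 27.7 ± 1.3 FPKM (log2 difference 0.85 ± 0.10, adjusted p = 0.00098). Oaz2, an antizyme that limits polyamine synthesis, rose from 31.8 ± 5.71 to 49.9 ± 1.62 FPKM (log2 difference 0.65 ± 0.12, adjusted p = 0.00636), a call lost without library a of 3 d, where 1 member fell as well. Of the 13 genes in this list, 1 rose and 1 fell under median-ratio scaling. None of 74 cytosolic ribosomal protein genes was called by limma, with all differences between -0.38 and 0.29 and a median of -0.01 (-0.04 without library a of 3 d, -0.16 under median-ratio scaling). Of the 74, 10 were at an unadjusted p under 0.05, beside 6011 of the 18072 genes tested, and limma-voom called 0. The most moved were Rpl3 (log2 difference -0.38 ± 0.12, adjusted p = 0.0566) and Rps6 (log2 difference -0.30 ± 0.07, adjusted p = 0.0176). Rpl3 was called lower under median-ratio scaling without library a of 3 d, at -0.59.

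Part of the Atf4 stress response fell, with 7 of 23 genes called lower and 0 higher. The count was 5 to 8 when 1 library was left out and 8 under median-ratio scaling. Atf4, the transcription factor that responds to amino acid shortage and protein misfolding, measured 180.5, 135, 121 and 124 FPKM at 3 d and 58.2, 60.6, 59.7 and 60.4 FPKM at 5 d (log2 difference -1.20 ± 0.12, adjusted p = 0.000357) and ended below 0 d (72.6 ± 2.77 FPKM). Chac1, which degrades glutathione, measured 16, 22.8, 25.1 and 25.8 FPKM at 3 d and 5.05, 5.5, 5.19 and 3.75 FPKM at 5 d (log2 difference -1.98 ± 0.16, adjusted p = 0.000162). Chac1 at 3 d overlapped 0 d or lay below it (34.5 ± 11.5 FPKM), and at 5 d every library was below every library of 0 d. Ddit4, an inhibitor of mTORC1, measured 36.4, 45.2, 45.7 and 40.3 FPKM at 3 d and 11.6, 9.49, 11.5 and 14.4 FPKM at 5 d (log2 difference -1.76 ± 0.12, adjusted p = 0.000104), and Slc7a5, a leucine transporter, 5.62, 9.04, 7.79 and 7.96 FPKM at 3 d and 3.06, 3.42, 3.31 and 3.9 FPKM at 5 d (log2 difference -0.95 ± 0.13, adjusted p = 0.0017). Both remained above 0 d, at 7.02 ± 0.623 and 1.14 ± 0.151 FPKM. Chac1 is a standard Atf4 target, and the 250 bases before its start site are shown with a match to the amino acid response element TGATGNAA in capitals, here on the opposite strand.
Chac1 (chr2:119350992-119351241, plus strand): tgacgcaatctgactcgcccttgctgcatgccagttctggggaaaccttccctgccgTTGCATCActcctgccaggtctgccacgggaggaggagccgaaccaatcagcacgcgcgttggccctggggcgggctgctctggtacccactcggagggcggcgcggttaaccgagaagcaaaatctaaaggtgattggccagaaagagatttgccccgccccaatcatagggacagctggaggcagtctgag
The match lies 193 bases before the start site. The same letters were found in 6 of the 21 promoters matched for this list, in 1 of the 6 matched members that were called, and in 3.45% of all promoters.

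Other stress lists held fewer calls. Of 20 chaperones of the endoplasmic reticulum, 1 fell, Hspa5 (BiP), from 174 ± 8.49 to 107 ± 4.84 FPKM (log2 difference -0.69 ± 0.06, adjusted p = 0.000234). Of 26 heat shock proteins, 2 small ones fell. Cryab went from 1967 ± 271 to 1193 ± 114 FPKM (log2 difference -0.71 ± 0.13, adjusted p = 0.00613). Hspb1 went from 1121 ± 170.2 to 734 ± 65.5 FPKM (log2 difference -0.60 ± 0.12, adjusted p = 0.0104), a call lost without any 1 of libraries b or d of 3 d or a or c of 5 d, so 1 was left. Hspa5, Cryab and Hspb1 stayed above 0 d, where Hspa5 was at 48.9 ± 2.48, Cryab at 397 ± 73.1 and Hspb1 at 143 ± 11.8 FPKM.

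Of 20 genes linked to p53 and growth arrest, 1 rose and 6 fell, although the list's median was 0.02 (-0.05 without library a of 3 d, -0.13 under median-ratio scaling, -0.05 in limma-voom). Btg2, an antiproliferative factor, measured 72.9, 70.9, 56.2 and 58.3 FPKM at 3 d and 18.2, 20.6, 18.5 and 21.5 FPKM at 5 d (log2 difference -1.66 ± 0.10, adjusted p = 5.6e-05). Cdkn1a, the cell cycle inhibitor p21, measured 55, 68.5, 84.9 and 95.6 FPKM at 3 d and 32.3, 37.7, 41.6 and 42.4 FPKM at 5 d (log2 difference -0.94 ± 0.17, adjusted p = 0.00538) and stood at 3.2 ± 0.319 FPKM at 0 d. Sesn1, a sestrin that restrains mTORC1, fell from 22.3 ± 7.25 to 9.63 ± 0.852 FPKM (log2 difference -1.08 ± 0.20, adjusted p = 0.00601). Plk3, a stress kinase, fell from 2.6 ± 0.916 to 0.979 ± 0.172 FPKM (log2 difference -0.82 ± 0.20, adjusted p = 0.0185), a call lost without any 1 of libraries d of 3 d or a of 5 d. In all 4 genes the 5 d libraries lay below every 3 d library. Within the list, 0 rose without library d of 5 d. Of the 20 genes in this list, 0 rose and 6 fell under median-ratio scaling. Of 18 Nrf2 targets and antioxidants, 2 rose and 3 fell. Besides Mt1, the antioxidant enzymes Gsr and Srxn1 fell, from 31.9 ± 2.2 to 17.7 ± 0.885 FPKM (log2 difference -0.81 ± 0.07, adjusted p = 0.000178) and from 67.9 ± 9.28 to 39.1 ± 3.19 FPKM (log2 difference -0.77 ± 0.11, adjusted p = 0.00171). Gsta4, a glutathione transferase, rose from 3.33 ± 1.99 to 9.71 ± 2.2 FPKM (log2 difference 1.43 ± 0.35, adjusted p = 0.0222), a call lost without any 1 of libraries b of 3 d or a or d of 5 d. Within the list, 0 rose without any 1 of libraries a or d of 5 d. Of the 18 genes in this list, 1 rose and 5 fell under median-ratio scaling.

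The molecules of the inflammasome, which the study is about, did not pass the test in this step. Nlrp3, the sensor, was listed at 0.0644, 0.339, 0.303 and 0.161 FPKM at 3 d and 0.234, 0.302, 0.311 and 0.245 FPKM at 5 d, from 4 fragments upwards (log2 difference 0.07 ± 0.08, adjusted p = 0.592). Its groups overlapped. Pycard (ASC), the adaptor, was at 0.447 ± 0.249 FPKM at 3 d and 0.44 ± 0.0804 FPKM at 5 d (log2 difference 0.01 ± 0.12, adjusted p = 0.976), and Casp1, the protease, at 1.28 ± 0.49 FPKM at 3 d and 1.92 ± 0.158 FPKM at 5 d (log2 difference 0.38 ± 0.15, adjusted p = 0.115). Gsdmd, the pore former of pyroptosis, was at 2.06, 4.68, 4.94 and 3.71 FPKM at 3 d and 3.8, 4.25, 4.42 and 3.96 FPKM at 5 d (log2 difference 0.12 ± 0.19, adjusted p = 0.717). Library a of 3 d was the lowest of its group for each of these 4 genes, and without it the differences were 0.01, -0.10, 0.25 and -0.09, so the sign turned for Pycard and Gsdmd. Il1b was at 0.171, 0.564, 0.612 and 0.28 FPKM at 3 d and 0.125, 0.161, 0.15 and 0.184 FPKM at 5 d (log2 difference -0.27 ± 0.10, adjusted p = 0.102), and Il18 at 2.13 ± 0.69 FPKM at 3 d and 2.11 ± 0.626 FPKM at 5 d (log2 difference -0.003 ± 0.20, adjusted p = 0.994). Of the 21 inflammasome and cell death genes, 1 rose and 1 fell. Bcl2l1, which restrains apoptosis, measured 6.53, 8.71, 6.35 and 5.32 FPKM at 3 d and 4.73, 3.22, 3.54 and 4.82 FPKM at 5 d (log2 difference -0.60 ± 0.15, adjusted p = 0.0255), a call lost without any 1 of libraries b of 3 d or b or c of 5 d. Within the list, 0 rose without any 1 of libraries a or d of 3 d or a, b, c or d of 5 d, 0 fell without any 1 of libraries b of 3 d or b or c of 5 d and 2 fell without library a of 3 d. Of the 21 genes in this list, 0 rose and 1 fell under median-ratio scaling.

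Acute phase and IL-6 family genes fell in part. Of 19 genes, 1 rose and 4 fell, with a median of -0.36 (-0.55 without library a of 3 d, -0.57 in limma-voom), and 2 to 5 fell when 1 library was left out. Within the list, 2 rose without any 1 of libraries b or c of 3 d and 2 fell without any 1 of libraries a or c of 5 d. Of the 19 genes in this list, 1 rose and 7 fell in limma-voom. Lcn2 is given above. Cebpd, a transcription factor of the acute phase, kept its call under every alternative, with 26.2, 30.3, 28.5 and 27.1 FPKM at 3 d and 6.79, 6.49, 6.04 and 7.12 FPKM at 5 d (log2 difference -1.93 ± 0.07, adjusted p = 8.48e-06). Orm1, an acute phase glycoprotein, fell from 18.1 ± 6.56 to 9.08 ± 1.08 FPKM (log2 difference -0.87 ± 0.21, adjusted p = 0.0201), a call lost without any 1 of libraries d of 3 d or a or c of 5 d. Cntfr, the receptor for ciliary neurotrophic factor, rose, with 1.38, 1.78, 1.37 and 1.15 FPKM at 3 d and 7.37, 5.39, 7.55 and 7.4 FPKM at 5 d (log2 difference 1.71 ± 0.12, adjusted p = 0.000113). Of 22 chemokines and cytokines, 0 rose and 2 fell, and 5 fell without library a of 3 d. Tnfrsf12a, the receptor for TWEAK on injured muscle, fell from 162 ± 11.3 to 81.5 ± 4.58 FPKM (log2 difference -0.98 ± 0.07, adjusted p = 0.000107), and the chemokine Cxcl14 from 233 ± 30.7 to 131 ± 17.5 FPKM (log2 difference -0.82 ± 0.12, adjusted p = 0.00269). Within the list, 3 rose without library c of 3 d and 5 fell without library a of 3 d. Of the 22 genes in this list, 2 rose and 3 fell in limma-voom.

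Some antigen presentation and interferon genes rose. Of 21 genes of complement and antigen presentation, 8 rose and 0 fell, with a median of 0.48. The number that rose was 6 without library a of 3 d. Within the list, 5 rose without any 1 of libraries d of 3 d or a, c or d of 5 d. The 4 largest were of MHC class II. Cd74, the invariant chain, measured 14.4, 19.2, 29.5 and 25.1 FPKM at 3 d and 63.7, 67.6, 67.4 and 85 FPKM at 5 d (log2 difference 1.68 ± 0.20, adjusted p = 0.000826). H2-Aa measured 5.52, 6.09, 10.2 and 8.04 FPKM at 3 d and 23.1, 21.2, 20.7 and 23.6 FPKM at 5 d (log2 difference 1.49 ± 0.16, adjusted p = 0.000515). Without library a of 3 d the differences were 1.504 and 1.37, and the groups did not overlap. H2-Eb1 rose from 11.7 ± 4.12 to 35.4 ± 3.75 FPKM (log2 difference 1.57 ± 0.21, adjusted p = 0.00135), and H2-Ab1 from 9.16 ± 2.83 to 27.5 ± 3.96 FPKM (log2 difference 1.52 ± 0.20, adjusted p = 0.00125). At 5 d each of the 4 lay above its mean at 0 d, 37.5 FPKM for Cd74 and 12 FPKM for H2-Aa. Summed macrophage markers overlapped between 3 d and 5 d, as given above.

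Of 26 interferon-stimulated genes, 5 rose and 0 fell, all 26 differences were positive, and the median was 0.45 (1.02 in limma-voom). The count was 4 without library a of 3 d, 3 under median-ratio scaling and 11 in limma-voom. Within the list, 3 rose without any 1 of libraries b or d of 3 d or c or d of 5 d. Irgm1, an immunity GTPase, measured 1.52, 1.26, 1.43 and 1.66 FPKM at 3 d and 3.83, 4.13, 3.74 and 3.77 FPKM at 5 d (log2 difference 0.98 ± 0.08, adjusted p = 0.000206), with little spread in either group. Gbp3, a guanylate-binding protein, rose from 1.41 ± 0.444 to 3.96 ± 0.514 FPKM (log2 difference 1.06 ± 0.15, adjusted p = 0.00212) and Ifit3 from 1.78 ± 0.607 to 4.27 ± 1.05 FPKM (log2 difference 0.93 ± 0.20, adjusted p = 0.0116). Ifit1 rose from 0.882 ± 0.165 to 2 ± 0.763 FPKM (log2 difference 0.65 ± 0.16, adjusted p = 0.0247), a call lost without any 1 of libraries b or d of 3 d or c or d of 5 d. For Gbp3 and Ifit3 the 3 d values lay under 0 d (3.6 ± 0.345 and 3.69 ± 0.181 FPKM) and those of 5 d near it.

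Proliferation genes gave no common direction. None of 29 mitosis genes was called by limma or limma-voom. At an unadjusted p under 0.05 there were 0, beside 6011 of the 18072 genes tested. The mitosis genes summed to 9.79, 52.7, 49.7 and 28.5 FPKM at 3 d against 21.3 to 46.2 FPKM at 5 d. The most moved were Nusap1 (log2 difference 0.31 ± 0.27, adjusted p = 0.479) and Aurka (log2 difference -0.24 ± 0.20, adjusted p = 0.469). Of 28 DNA replication genes, 1 rose and 2 fell. Rrm2, the small subunit of ribonucleotide reductase, measured 10.8, 25.6, 9.31 and 17.1 FPKM at 3 d and 4.68, 2.14, 2.17 and 4.2 FPKM at 5 d (log2 difference -1.91 ± 0.32, adjusted p = 0.0044) and its large subunit Rrm1 measured 1.87, 4.33, 4.79 and 3.98 FPKM at 3 d and 6.17, 5.77, 6.73 and 6.83 FPKM at 5 d (log2 difference 0.68 ± 0.20, adjusted p = 0.0428). The subunits of this enzyme thus moved in opposite directions, but the call of Rrm1 held in 6 of 19 alternatives. Cdt1, which licenses replication, fell from 2.06 ± 0.55 to 0.981 ± 0.199 FPKM (log2 difference -0.62 ± 0.14, adjusted p = 0.018), a call lost without any 1 of libraries b or c of 3 d or c of 5 d. Within the list, 0 rose without any 1 of libraries a, b or d of 3 d or a, b, c or d of 5 d and 1 fell without any 1 of libraries b or c of 3 d or c of 5 d. Of the 28 genes in this list, 0 rose and 2 fell under median-ratio scaling, and 2 rose and 2 fell in limma-voom.

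The matrix lists depended on library a of 3 d. Of 26 collagens and matrix genes, 1 rose and 1 fell while the median was 0.62. Without that library the median was 0.16 with 1 that rose and 3 that fell, and 0 fell without any 1 of the other libraries. Col19a1, a collagen of muscle and nerve, measured 3.36, 1.66, 3.46 and 3.66 FPKM at 3 d and 6.08, 7.43, 6.91 and 5.26 FPKM at 5 d (log2 difference 0.90 ± 0.19, adjusted p = 0.0101). Thbs1, an activator of latent TGF-beta, measured 9.64, 27.5, 26.3 and 21 FPKM at 3 d and 8.36, 6.39, 10.1 and 12.4 FPKM at 5 d (log2 difference -1.04 ± 0.31, adjusted p = 0.0467), a call lost without any 1 of libraries b, c or d of 3 d or a, b, c or d of 5 d although library a, when left out, widened the difference to -1.36. Of 23 matrix remodelling enzymes, 1 rose and 1 fell, and without library a 6 fell. Of the 23 genes in this list, 1 rose and 4 fell under median-ratio scaling, and 1 rose and 2 fell in limma-voom. P4ha1, a collagen prolyl hydroxylase, measured 6.11, 10.2, 10.1 and 8.6 FPKM at 3 d and 19.8, 18.5, 18.8 and 18.4 FPKM at 5 d (log2 difference 1.05 ± 0.14, adjusted p = 0.00132). Its call held without library a, where the log2 difference was 0.91.

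Among 26 growth factor, myostatin, activin and BMP genes, 4 rose and 3 fell, led by Igfbp5. Gdf5, a BMP ligand that denervated muscle is known to make, fell from 12.5 ± 1.54 to 5.65 ± 0.426 FPKM (log2 difference -1.02 ± 0.10, adjusted p = 0.000297) and was under 0.2 FPKM at 0 d. Gdf11 rose from 1.28 ± 0.325 to 3.39 ± 0.535 FPKM (log2 difference 0.95 ± 0.13, adjusted p = 0.00184), and Id2, an inhibitor of differentiation that BMP signals induce, from 6.01 ± 2.24 to 11.9 ± 0.696 FPKM (log2 difference 0.94 ± 0.24, adjusted p = 0.0243). The call of Id2 was lost without any 1 of libraries a, b, c or d of 5 d. None of 15 neurotrophic and repair Schwann genes was called by limma, and 2 were called by limma-voom. At an unadjusted p under 0.05 there were 4, beside 6011 of the 18072 genes tested. Without library a of 5 d, 1 rose. The most moved were Olig1 (log2 difference 0.51 ± 0.13, adjusted p = 0.0293) and the neurotrophin receptor Ngfr, at 5.87, 15.3, 17.8 and 9.06 FPKM at 3 d and 26.5, 7.89, 11.3 and 20.8 FPKM at 5 d (log2 difference 0.41 ± 0.41, adjusted p = 0.545).

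Clock genes moved in both directions. Of 18, 2 rose and 3 fell. Dbp, an output gene of the circadian clock, measured 6.98, 8.65, 11.1 and 11.3 FPKM at 3 d and 38.5, 44.2, 43.5 and 42.5 FPKM at 5 d (log2 difference 2.06 ± 0.14, adjusted p = 8.7e-05), which returned it to 0 d (39.1 ± 4 FPKM). Per1, a repressor of the clock that also responds to hormones, measured 30.5, 25.6, 28 and 29.2 FPKM at 3 d and 8.71, 10.9, 11.8 and 11.6 FPKM at 5 d (log2 difference -1.33 ± 0.10, adjusted p = 0.000132), above 0 d at each time (5.55 ± 0.142 FPKM). Per3 rose from 3.24 ± 0.174 to 6.38 ± 0.394 FPKM (log2 difference 0.80 ± 0.07, adjusted p = 0.000271). The hour of dissection is not given in the sources used here. The promoter of Per1 is shown since the clock factors are known to bind the E-box CACGTG, a form of CANNTG, in the period genes.
Per1 (chr11:69098699-69098948, plus strand): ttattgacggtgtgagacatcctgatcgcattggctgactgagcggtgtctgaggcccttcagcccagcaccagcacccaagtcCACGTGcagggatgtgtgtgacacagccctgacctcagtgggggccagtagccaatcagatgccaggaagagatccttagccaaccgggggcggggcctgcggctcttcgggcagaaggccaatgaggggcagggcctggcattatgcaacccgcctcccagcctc
RefSeq lists 2 start sites for Per1, and the one nearest to the annotated 5′ end was used. The match lies 166 bases before it. CACGTG was present in 5 of 15 promoters matched for the list and in 6.02% of all promoters.

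Markers of the cell types that GAS can hold were compared last. Of 6 muscle fibre markers, 2 rose. Mb, myoglobin, measured 259.6, 369.7, 343 and 433 FPKM at 3 d and 1213, 1021, 967 and 1109 FPKM at 5 d (log2 difference 1.63 ± 0.15, adjusted p = 0.000294) and Pvalb, the calcium buffer parvalbumin, 1819, 1051, 1803 and 1885 FPKM at 3 d and 3160.1, 3166, 2759 and 2779 FPKM at 5 d (log2 difference 0.89 ± 0.19, adjusted p = 0.0124). Both stayed under 0 d (1805 ± 439 and 6899 ± 509 FPKM), and Pvalb was not called under median-ratio scaling (0.73). Of 18 macrophage markers, 1 fell, the lysosomal protein Cd68, with 133, 155, 109 and 94.1 FPKM at 3 d and 50.4, 53.8, 59.3 and 71.7 FPKM at 5 d (log2 difference -1.04 ± 0.16, adjusted p = 0.00323), and 3 fell without library a of 3 d. Of the 18 differences, 13 were positive, with a median of 0.25 (-0.20 without library a of 3 d, 0.14 under median-ratio scaling). Of 11 fibro-adipogenic markers, 2 rose. Lum measured 19.5, 50.4, 66.9 and 54.8 FPKM at 3 d and 97, 87.6, 97.1 and 115 FPKM at 5 d (log2 difference 1.16 ± 0.33, adjusted p = 0.036), a call lost without any 1 of libraries b or d of 3 d or a, b, c or d of 5 d, while Fap rose from 2.86 ± 0.935 to 5.5 ± 0.363 FPKM (log2 difference 0.78 ± 0.16, adjusted p = 0.0111). Of 8 mural markers, 1 rose, Abcc9, a subunit of potassium channels that fibres make too, from 36.6 ± 2.14 to 58.2 ± 5.01 FPKM (log2 difference 0.65 ± 0.07, adjusted p = 0.00074), a call lost under median-ratio scaling. Of 11 Schwann markers, 1 rose, S100b, with 0.704, 1.21, 1.49 and 1.24 FPKM at 3 d and 13, 1.65, 4.64 and 9.03 FPKM at 5 d (log2 difference 1.66 ± 0.45, adjusted p = 0.0309), a call lost in limma-voom and without any 1 of libraries a, b or d of 3 d or a, c or d of 5 d. Summed Schwann markers were 27.3 to 69 FPKM at 3 d and 39.8 to 87.6 FPKM at 5 d.

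Of 14 endothelial, 8 satellite cell, 9 adipocyte and 5 erythroid markers, none was called by limma. At an unadjusted p under 0.05 the counts were 8, 1, 2 and 0, beside 6011 of the 18072 genes tested. Limma-voom called 1 adipocyte marker and none of the rest. Without library c of 3 d, 3 adipocyte markers rose. Their most moved members were Kdr (log2 difference 0.47 ± 0.14, adjusted p = 0.0443) and Vwf (log2 difference 0.44 ± 0.17, adjusted p = 0.112) for endothelium, Myf5 (log2 difference 0.40 ± 0.13, adjusted p = 0.0555) and Sdc4 (log2 difference -0.20 ± 0.13, adjusted p = 0.31) for satellite cells, and Hbb-bt (log2 difference 0.41 ± 0.31, adjusted p = 0.403) and Hba-a1 (log2 difference 0.40 ± 0.34, adjusted p = 0.466) for erythroid cells. The adipocyte genes Cfd and Plin1 varied within groups, with 29.3, 80.3, 143 and 31.9 FPKM at 3 d and 195, 90.8, 149.8 and 218 FPKM at 5 d for Cfd (log2 difference 1.42 ± 0.50, adjusted p = 0.08) and a difference of 1.13 ± 0.37 for Plin1 (adjusted p = 0.0595). Only 5 of 9 neutrophil and 4 of 11 lymphocyte markers passed the filter, and none was called by limma or limma-voom, with 1 and 0 at an unadjusted p under 0.05. Without library a of 3 d, 1 neutrophil marker, S100a9, fell. Their most moved members were S100a9 (log2 difference -0.64 ± 0.27, adjusted p = 0.129), Retnlg (log2 difference -0.47 ± 0.56, adjusted p = 0.61), Cd2 (log2 difference 0.21 ± 0.16, adjusted p = 0.428) and Cd4 (log2 difference 0.16 ± 0.07, adjusted p = 0.167). Of the keratinocyte and retina markers, 2 each passed, and none was called, with Krt10 at 0.26, Sbsn at -0.15, Rom1 at -0.05 and Opn1sw at -0.04.

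**Figure D5:**
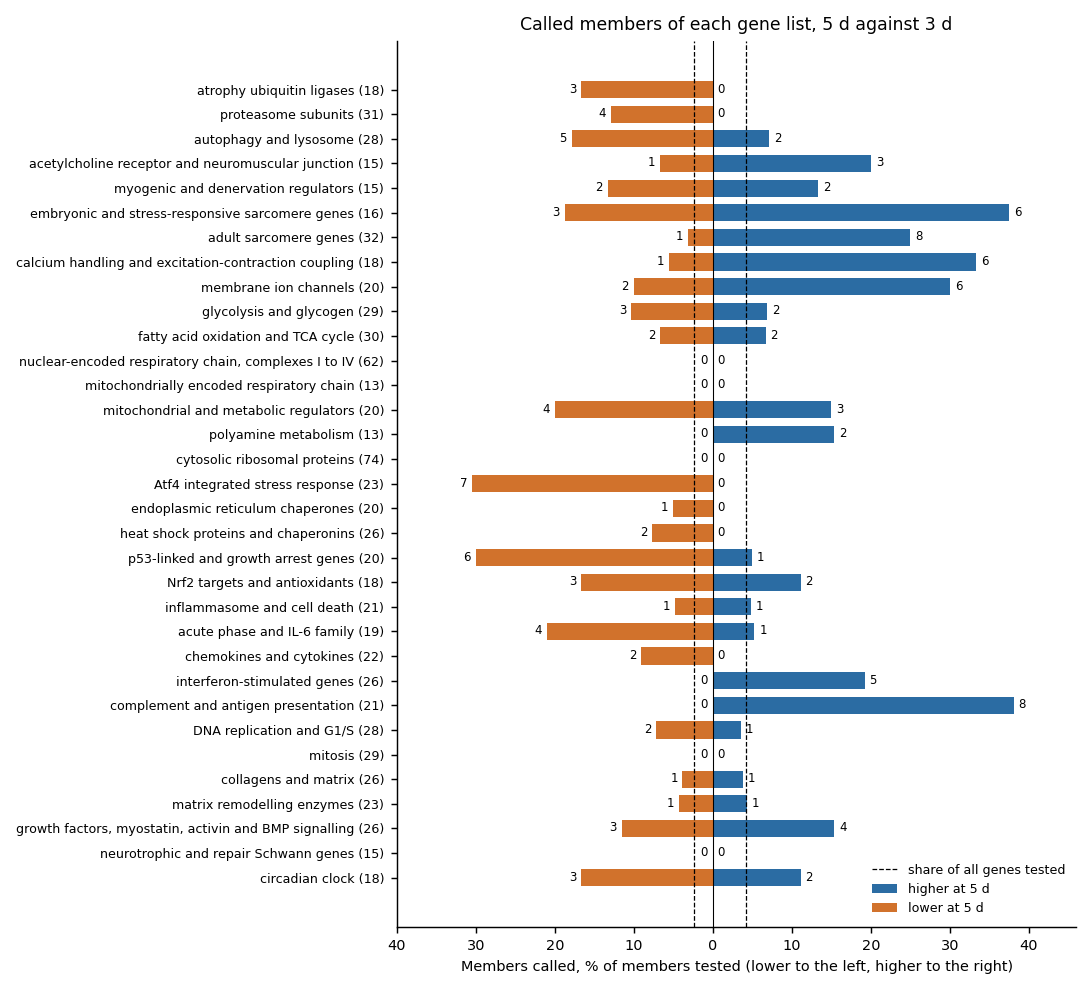
Share of the members tested (number in brackets) of each of 33 gene lists that rose (blue, to the right) or fell (orange, to the left) between 3 d and 5 d, in percent, with counts at the bars. Dashed lines give the share over all genes tested, 4.21% higher and 2.4% lower, and complement and antigen presentation reaches 8 of 21 to the right while the Atf4 response reaches 7 of 23 to the left.

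Of the 169 genes named, 40 overlap an annotated gene on the other strand, by a median of 195 bases. The overlap was above 500 bases for 11 of them, namely Hdac4, Cacna1s, Plekhh1, Gdf5, Txnip, Atp1b1, Gabarapl1, Cebpd, Dbp, Myh7 and Bnip3. If strand was not kept, their values can hold fragments of the partner.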

How the data were processed

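The authors deposited FPKM values for 33397 genes, 4 samples at each of 8 time points. The submitters' processing notes name CASAVA, HISAT2 2.1.0, DESeq2 and GRCm38. Multiplying by exon length (GENCODE M21, 33356 genes matched and 41 not) and a constant per library gave back whole fragments, within 0.02, for 99.3 to 99.4% of values under 200 fragments. The recovered totals of the 8 libraries were 15318082 to 17425644, and such numbers cover counting error only. Column names hold a day and a letter tied to no animal. The 4 columns named C were taken as 0 d, since the other 28 name another day. P-values measure the spread between these samples, which no label ties to separate litters.

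The values log2(FPKM + 1) of the 8 libraries entered limma 3.58.1 (R 4.3.3) with a variance trend. Genes with 0.1 FPKM or more in 4 libraries were tested, and a call needed 1.5-fold and a Benjamini-Hochberg adjusted p below 0.05. This scale understates the change of low genes. Other steps ran in Python 3.11.15 (scipy 1.17.1, numpy 2.4.6, matplotlib 3.10.9, pandas 2.3.3). In data of 18072 genes simulated for this comparison, 138 of 200 genes changed 2-fold (69%) were recovered, and 1 unchanged gene was called. The simulated noise was independent between genes and held no shift shared across genes, such as that of library a of 3 d. The simulation therefore does not give the rate of false calls in these data. All replicate pairs differed by more than sampling noise.

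Members and gene lists were chosen with earlier results of these data known. Named genes were the 12 largest rises and falls without overlap between groups (predicted genes left out), up to 4 called members of each list or the 2 most moved where none was called, and 10 molecules that the study measured. A few of these genes are not reported here. Lists are described by counts and medians. Alternatives were a pseudocount of 0.1, no filter or one of 1 FPKM, median-ratio and quantile scaling, TPM, totals without mitochondrial genes, no variance trend, a fit of all 32 columns, limma-voom on recovered fragments, other fold thresholds and each library left out. Median-ratio scaling without library a of 3 d was added after seeing the data, as were the lists in the closing part. Promoters came from RefSeq on GRCm38.p6.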

Additional observations from a re-analysis of the deposited data

Results flagged for a closer look

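Each of the 342 groups of 4 values reported was checked for a library whose gap to the nearest other exceeded Dixon's 95% limit, as a part of the range of the group. Chance gives about 1 in 20, which is 17 groups, and 19 were found. Library a of 3 d was the one apart in 6 of the 10 at 3 d and library b of 5 d in 5 of the 9 at 5 d. Library a of 3 d was apart for Trim63 at 1590.1 (the others 1114 to 1184), Atp1b1 at 6.23 (the others 13.5 to 14.9), Acaa2 at 24.1 (the others 34.5 to 35.8), Rpl3 at 139 (the others 199 to 201), Gsr at 35.1 (the others 30.4 to 30.9) and Myom3 at 6.85 (the others 20.3 to 22) FPKM. Library b of 3 d was apart for Cd36 at 239 (the others 184 to 189), Col19a1 at 1.66 (the others 3.36 to 3.66), Pvalb at 1051 (the others 1803 to 1885) and Cd4 at 0.341 (the others 0.103 to 0.13) FPKM. Library a of 5 d was apart for Cacna1s at 103 (the others 127 to 130.03) and Hadhb at 55.7 (the others 48.3 to 49.5) FPKM. Library b of 5 d was apart for Krt8 at 98.7 (the others 63.4 to 67.4), Idh2 at 22.9 (the others 27.3 to 27.8), Gsr at 16.4 (the others 18.1 to 18.3), Cntfr at 5.39 (the others 7.37 to 7.55) and Prg4 at 27.2 (the others 21.2 to 21.9) FPKM. Library c of 5 d was apart for Fbp2 at 2.7 (the others 3.97 to 4.17) FPKM. Library d of 5 d was apart for Dusp1 at 8.39 (the others 6.5 to 6.79) FPKM.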

How the results depend on the processing

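No paired analysis was possible because the columns carry letters that are tied to no sample and each time point stands for other animals. With 1 library left out, 1030 to 1378 genes were called, 596 to 926 that rose and 376 to 465 that fell, and the difference in mitochondrial share was -2.67 to -1.38 percentage points. The total of 1193 became 2007 with a pseudocount of 0.1 FPKM, 2148 with limma-voom on fragments, 3739 with no fold threshold and 351 with 2-fold. The 760 that rose became 1433 with that pseudocount, 1571 with limma-voom, 1243 on TPM, 2540 with no fold threshold, 191 with 2-fold, 490 with median-ratio scaling and 478 when that scaling was combined with leaving out library a of 3 d. The 433 that fell became 1199 and 160 with these fold thresholds. The smaller fold threshold and the pseudocount admit smaller and lower-level changes by construction, and the cause of the other shifts was not tested. On protein-coding mitochondrial genes alone the difference in share was -2.07 percentage points (exact p = 0.0857).

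Of the 135 called genes chosen by the naming rule, 102 kept their call under all 19 alternatives and 33 lost it under at least 1, and none changed sign. Of the 34 genes chosen that were not called, 5 changed sign. Nlrp3 came to -0.00412 with median-ratio scaling without library a. Gsdmd came to -0.00494 with quantile normalisation, -0.0859 without library a of 3 d and -0.15 with median-ratio scaling without it. Pycard came to -0.0251 with median-ratio scaling, -0.0629 with quantile normalisation, -0.10 without library a of 3 d, -0.00683 without d of 3 d, -0.03 without d of 5 d and -0.13 with median-ratio scaling without library a. Il18 came to 0.017 on TPM, 0.07 without b of 3 d, 0.10 without c of 3 d, 0.13 without a of 5 d and 0.02 without c of 5 d. Rom1 came to 0.00769 without b of 5 d. With 1 library left out, Gsdmd ranged from -0.0859 to 0.23 and Pycard from -0.10 to 0.0977. Values of low genes rest on few fragments: Nlrp3 had as few as 4 fragments in a library and Il1b 4. Besides the left-out libraries, calls were lost as follows. Without a filter on low values these were Gjb1, Mef2c, Casq2, Idh2, Ifit1, Rrm1, Thbs1, Lum, S100b, Bcl6 and Fmod. Median-ratio scaling removed the calls of Map1lc3a, Hdac4, Mef2c, Acaa2, Oaz2, Ifit1, Rrm1, Pvalb, Abcc9 and Bcl6, and with library a of 3 d left out as well those of Psma2, Map1lc3a, Mef2c, Idh2, Acaa2, Oaz2, Ifit1, Rrm1, Fap, S100b, Bcl6 and Fmod. On TPM the calls of Asb2, Casq2, Hspb1, Rrm1 and Thbs1 were lost, with quantile normalisation those of Asb2, Psma2, Psmc4, Ifit1 and Rrm1, in the fit of all 32 columns those of Ifit1 and Bcl6, in limma-voom those of Gjb1 and S100b, and with a pseudocount of 0.1 FPKM that of Rrm1.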

Other observations

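The lists in this part were drawn up after the values had been seen, so they describe the libraries and carry no test. One list holds genes known to be induced by glucocorticoids in muscle and other tissues. Of 20 such genes 19 were tested, and 13 fell and 1 rose, beside 2.4% and 4.21% of all genes tested. The median log2 difference was -0.98, beside 0.08 over all genes. As the values were seen before the list was drawn up, these counts may follow from that choice. Besides Mt1, Fkbp5, Per1, Pdk4, Ddit4 and Cebpd, the steroid-responsive transcription factor Zbtb16 measured 24.3, 23.9, 12.1 and 12.8 FPKM at 3 d and 3.7, 4.38, 3.82 and 3.99 FPKM at 5 d (log2 difference -1.89 ± 0.22, adjusted p = 0.000857). Tsc22d3, the glucocorticoid-induced leucine zipper, measured 121, 108, 126 and 127 FPKM at 3 d and 65.4, 62.4, 70.9 and 62.6 FPKM at 5 d (log2 difference -0.88 ± 0.07, adjusted p = 0.000179). The phosphatase Dusp1 measured 20.2, 34.7, 21.2 and 24.6 FPKM at 3 d and 6.5, 6.79, 6.78 and 8.39 FPKM at 5 d (log2 difference -1.66 ± 0.16, adjusted p = 0.00033), below 0 d (24.7 ± 4.15 FPKM), and the lipase inhibitor Angptl4 11.4, 22.5, 20.8 and 15.2 FPKM at 3 d and 5.78, 2.47, 4.94 and 6.72 FPKM at 5 d (log2 difference -1.64 ± 0.28, adjusted p = 0.00428). Klf15 (-0.76), Klf9 (-0.69) and Nfkbia (-0.98) fell too, while Bcl6 rose (0.72), a call lost without any 1 of libraries a, b or d of 3 d or c or d of 5 d. The sum of the list was 1486 to 1855 FPKM at 3 d, 553 to 671 FPKM at 5 d and 389 to 473 FPKM at 0 d. Without library a of 3 d, 13 fell and 0 rose. Under median-ratio scaling 13 fell and 0 rose. Mt2, the neighbour of Mt1 that is usually induced with it, was listed at 0 in 6 of the 8 libraries and was not tested.

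Of 18 genes of slow and oxidative fibres, 10 rose and 1 fell, with a median of 1.05. Besides the myosins, Myom3, an M-band protein of slow fibres, measured 6.85, 20.3, 21.5 and 22 FPKM at 3 d and 54.8, 60.0, 57.5 and 67.3 FPKM at 5 d (log2 difference 1.82 ± 0.32, adjusted p = 0.00501), and Myoz2, a Z-disc protein of slow fibres, 12.7, 26.2, 19.1 and 28.5 FPKM at 3 d and 60.3, 49.5, 54.5 and 59 FPKM at 5 d (log2 difference 1.38 ± 0.22, adjusted p = 0.00321). Of 10 tendon markers, 5 rose and 1 fell. Chad, a cartilage and tendon matrix protein, measured 1.09, 2.35, 4.97 and 4.48 FPKM at 3 d and 23.1, 9.63, 25.1 and 13.4 FPKM at 5 d (log2 difference 2.18 ± 0.39, adjusted p = 0.00566) and Tnmd, tenomodulin, 1.74, 2.96, 2.86 and 7.01 FPKM at 3 d and 15.7, 11, 17.4 and 10.6 FPKM at 5 d (log2 difference 1.75 ± 0.31, adjusted p = 0.0052). Kera (1.76), Cilp2 (0.75) and Fmod (0.84) rose with them, and the joint lubricant Prg4 fell (-1.40). The call of Fmod was lost without any 1 of libraries b of 3 d or a, c or d of 5 d. Tendon markers summed to 202 to 369.7 FPKM at 0 d, 105 to 302 FPKM at 3 d and 225 to 307 FPKM at 5 d, and were lowest in library a of 3 d.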
